A study of Mus musculus with 3 samples.

Results

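Cytosolic ribosomal protein genes encode the proteins of the small and the large subunit of the ribosome that translates nuclear messages. They were chosen here by name, as gene names that start with Rps or Rpl followed by a digit, that start with Rplp, or that are exactly Rpsa, leaving out the S6 kinases (8 entries). The rule took 90 of 11419 genes. By name they were 31 small subunit genes and 45 large subunit genes of the canonical set, 4 paralogues, 8 names of pseudogenes and 2 others. The others were Rps19bp1, which encodes a protein that binds Rps19 and is no part of the ribosome, and Rpl37rt. Of 77 canonical names, 76 had a value, and Rpl24 is not analysed here. Of 9 paralogue names listed, Rpl3l, Rpl10l, Rpl36al, Rpl39l and Rps27rt are likewise not analysed here. Fau and Rack1, which encode ribosomal or ribosome-bound proteins under other names, fall outside the rule and are given beside it.

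Messenger RNA was sequenced from 3 libraries of 1 population, Cd11b+F4/80+CD169+CX3CR1neg cells sorted from crushed tibiae and femurs of C57BL/6 mice, an inbred strain, and labelled macrophages. No treatment, transgene or second population was labelled, no age or sex was given, and the labels do not tie libraries to mice, so the spread between libraries may be technical. The libraries had 5150020, 40149274 and 37604930 reads assigned to listed genes in replicates 1, 2 and 3. Replicate 1 thus had the fewest reads in total and, at equal CPM, the fewest behind a value. The values were counts per 1000000 assigned reads (CPM), in which levels of a gene can be compared between libraries, and CPM per kb of transcript. The latter was used to set genes against each other and depends on the length used.

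The macrophage label was checked against marker genes. Of 10 macrophage markers, all with reads, 5 were above 10 CPM and 3 below (limma, adjusted p under 0.05). Of all 11123 genes tested, 58.8% were above and 28.3% below, so these counts were near that background. The summed level of the macrophage markers was 239 to 261 CPM. Late neutrophil markers, 10 of 10 above 10 CPM (58.8% of all genes were), summed to 182787 to 219294 CPM, or 18.3% to 21.9% of the reads. This list holds S100a8, S100a9 and Cxcr2 beside granule genes. Siglec1, the gene of CD169, was at 0.388, 3.66 and 4.57 CPM. Its value in replicate 1 lies under the limit of a zero count there (3 reads, 0.583 CPM). By the marker sums the RNA held far more late neutrophil marker message than macrophage marker message, against the label. The cells are called by their sort gate here. In bulk RNA, fewer cells of a type and less RNA per cell cannot be told apart.

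Each ribosome holds 1 copy of nearly every ribosomal protein, and cells coordinate the output of these scattered genes largely at translation. Most of their messages start with a cytosine followed by a run of pyrimidines, the 5′ terminal oligopyrimidine tract, through which mTOR signalling and the RNA-binding protein LARP1 turn their translation up or down. In marrow these genes are best known from Diamond-Blackfan anaemia, a human failure of red cell production caused by loss of 1 copy of a ribosomal protein gene. In the mouse genome most of them also have many processed pseudogenes, copies made by reverse transcription that resemble the message.

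The start regions of most of these genes hold a pyrimidine run, with exceptions. The sequences below are 30 bases around the longest such run in the RefSeq promoter windows (GRCm38.p6), picked by hand with their values known. They cover highly and weakly expressed members and some paralogues, of which Rpl22l1 and Rps27l stand beside their parents and Rpl7l1 stands alone. Capitals mark the longest run of C and T found from 20 bases before to 50 bases after the annotated start, on the strand of the gene.
Rps9, chr7:3704025-3704054, plus strand: aaccgccttgTCTCTCTTTgtctcgggcct
Rpl28, chr7:4792953-4792982, plus strand: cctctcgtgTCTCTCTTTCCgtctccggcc
Rpl18, chr7:45718062-45718091, plus strand: tcgcaggccgCTCTTTCCCCgcccactccg
Rps26, chr10:128626484-128626513, minus strand: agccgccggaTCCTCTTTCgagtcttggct
Rpl38, chr11:114668568-114668597, plus strand: ggaagcctcgTTCTTTCCCCgttctcttcg
Rpl13a, chr7:45128722-45128751, minus strand: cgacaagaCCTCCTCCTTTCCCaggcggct
Rpl39, chrX:37085173-37085202, minus strand: gttcttccggtcccggCCTTTCTCTTCTCC
Rpl22l1, chr3:28805499-28805528, plus strand: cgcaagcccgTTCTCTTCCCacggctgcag
Rpl22, chr4:152324414-152324443, plus strand: atatcagcgctgCTTCTggaatgttccagc
Rps27l, chr9:66946064-66946093, plus strand: ctcctctccaCTCCTCCCCgccgcctctat
Rps27, chr3:90213631-90213660, minus strand: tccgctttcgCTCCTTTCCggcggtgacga
Rpl7l1, chr17:46782659-46782688, minus strand: cctctctaccccgCCCggtgaggctgcgca

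Only the 56 canonical genes with a RefSeq start used here were examined, which leaves out others, among them Rps14 and Rpl17. A run of at least 8 pyrimidines lay in that window in 45 of these 56 genes (80.4%), against 27.1% of 8809 other genes of the data. On the opposite strand the shares were 10.7% of the canonical genes and 30.4% of the others. Farther upstream, from 250 to 21 bases before the start, they were 69.6% and 67.1%, so the 2 sets were close there. The letters CTTTCC lay near the start on the gene's strand in 17 of 56 canonical genes (30.4%), against 3.66% of the other genes, and on the opposite strand in 0 of 56, against 3.52%. CCGGAAG, the core letters of sites for ETS factors, lay on either strand of the whole 300-base window in 42.9% of canonical genes and 21.6% of the others. TATAAA lay there in 10.7% and 8.41%. The low members Rpl13a and Rpl39 each had a run of 14 pyrimidines, which in Rpl39 began 36 bases past the annotated start, so its 30 bases do not hold that start. The longest run was 5 bases in Rpl22 and 3 bases in Rpl7l1, whose 30 bases end before the start. The RefSeq start of Rpl22 lies upstream of its interval in the GENCODE annotation (152325742 to 152334071 on chromosome 4), so it need not be the start of the transcript whose level and length are given here. A match to these letters is a description of the sequence and shows no use of it, and the annotated start may not be the one used in these cells.

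Canonical ribosomal protein messages were present at high levels with few exceptions. Each gene was compared with a level of 10 CPM by limma on log2(CPM + 1), and all 90 genes had enough reads to be tested. Of the 90, 77 were above 10 CPM, against 58.8% of all 11123 genes tested, and 11 were below, against 28.3% of all genes. All 31 small subunit genes and 44 of 45 large subunit genes were above, the exception being Rpl13a. Of the paralogues 2 of 4 were above and the others were not called, and all 8 pseudogene names were below. In GENCODE the 76 canonical genes are protein-coding, the 8 pseudogene names are processed pseudogenes, and Rps4l and Rpl37rt are transcribed processed pseudogenes.

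**Figure D1:**
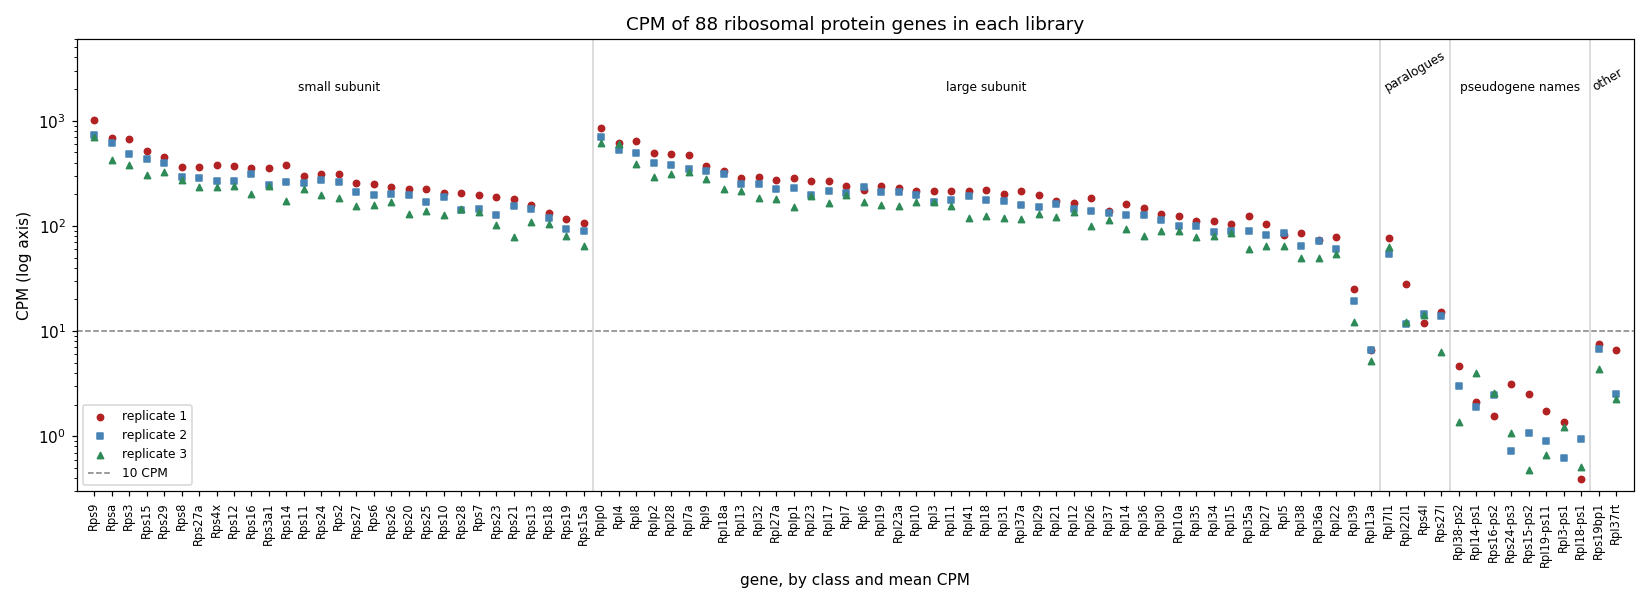
CPM (log axis) of 88 of the 90 genes in the 3 libraries, ordered by class and mean, with a dashed line at 10 CPM. The small and large subunit genes lie between about the level of Rps9 (701 to 1012 CPM) and that of Rps15a or Rpl22, with Rpl39 and Rpl13a far under the rest, and the pseudogene names lie under 10 CPM in every library.

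Over the 76 canonical genes the mean level had a median of 189 CPM, and the middle 50% lay between 135 and 282 CPM. CPM also grows with the length of a transcript, so genes are set against each other per kb. The whole range ran from 5.88 CPM per kb for Rpl13a to 1087 for Rps9, a ratio of 185. Without Rpl13a and Rpl39, chosen after their values were seen, the ratio was 28.8 per kb and 12.7 in CPM. The lowest gene per kb was then Rpl5, whose value is lowered by the long transcript used (2045 bases). Across the 76 canonical genes the level per kb was lower in longer transcripts (Spearman correlation of length with level per kb -0.36). The canonical median was 268 CPM per kb, and that of 7203 other genes averaging 10 CPM or more was 15.1 CPM per kb. In CPM the medians were 189 and 42.5, and the median lengths were 740 and 2898 bases. The gap was thus smaller before division by length. This is a description of levels with no test, and these other genes were chosen for passing 10 CPM.

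Among small subunit genes the highest, in CPM and per kb, was Rps9 (ENSMUSG00000006333, GRCm38 chromosome 7, 3703993 to 3706897, plus strand), whose protein binds early in small subunit assembly. It was at 1012, 736 and 701 CPM in replicates 1, 2 and 3, or 1087 ± 227 CPM per kb (SD, n = 3), which is 6.20 ± 0.11 (SE) above 10 CPM on the log2(CPM + 1) scale (adjusted p = 1.40e-22 by limma). Replicate 1 was the highest library and the others lay close together. Rpsa, which is also known as a laminin receptor, was at 692, 609 and 421 CPM. Rps3, at the entry of the messenger RNA channel, was at 669, 484 and 382 CPM. Rps15, of the head of the small subunit, was at 513, 428 and 307 CPM. In all 3 genes replicate 1 was highest and replicate 3 lowest. Per kb, Rps29, a small zinc-binding protein, followed Rps9 at 1001 ± 164 CPM per kb. Their order was not the same in all libraries, as Rps29 was the higher in replicate 2 (1025 against 981 CPM per kb). Rps15 at 832 ± 207 and Rps27 at 602 ± 148 CPM per kb completed the 4 small subunit genes among the 5 highest canonical genes per kb. Rps28 at 602 ± 130, Rpl8 at 599.7 ± 152 and Rps12 at 593 ± 146 CPM per kb were close to Rps27. Rps27 was above each of them in replicate 2 and below each of them in replicates 1 and 3.

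Large subunit genes were led in CPM by Rplp0, the base of the stalk that recruits elongation factors. It was at 844, 699 and 620 CPM, and its partners in the stalk were at 494, 396 and 290.5 CPM (Rplp2) and 285, 231 and 151 CPM (Rplp1). Per kb of transcript Rplp2 was highest of the 3 at 935 ± 241, followed by Rplp0 at 531 ± 83.6 and Rplp1 at 445.5 ± 135. Rplp0 was above Rplp1 in each library, at 622, 515 and 457 against 571, 463 and 302 CPM per kb. Rpl8, close to the peptidyl transferase centre, was at 646, 497 and 389 CPM. Rpl28 was at 480, 380 and 311 CPM. Rpl4, whose protein reaches into the exit tunnel, was at 617, 531 and 599 CPM and so was one of the few genes that were not lowest in replicate 3. The 10 highest genes by mean CPM were, in order, Rps9, Rplp0, Rpl4, Rpsa, Rps3, Rpl8, Rps15, Rplp2, Rps29 (449, 400 and 322 CPM) and Rpl28.

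Rpl5 and Rpl11, which with the 5S ribosomal RNA can bind and inhibit Mdm2, were at 37.8 ± 5.77 and 219 ± 35.3 CPM per kb, in the lower and the middle range. Rpl5 was at 82.5, 85.6 and 63.8 CPM and Rpl11 at 214, 178 and 155 CPM. The 10 genes of the Diamond-Blackfan list were all above 10 CPM (58.8% of all genes were) and summed to 1866, 1571 and 1254 CPM in replicates 1, 2 and 3. In CPM the means of those named here ran from Rpl5 (77.3 ± 11.8 CPM) through Rpl35a (91.6 ± 32.0), Rps19 (96.8 ± 18.5), the gene first linked to the disease, Rpl26 (140 ± 42.2), Rps7 (159 ± 32.1), Rps10 (173 ± 41.2), Rpl11 (182 ± 29.4) and Rps26 (201 ± 32.1) to Rps24 (260 ± 56.6). Of these genes, 9 of 10 genes were highest in replicate 1, the exception being Rpl5, against 32.1% of all genes.

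The lowest canonical gene was Rpl13a (ENSMUSG00000074129, GRCm38 chromosome 7, 45125558 to 45128761, minus strand), whose protein is known in human myeloid cells also for silencing inflammatory messages when released from the ribosome. It was at 6.60, 6.62 and 5.24 CPM, from 34, 266 and 197 reads, and all 3 libraries lay under 10 CPM. Against 10 CPM it stood at -0.63 ± 0.24 (SE) on the log2(CPM + 1) scale (adjusted p = 0.0206 by limma), a call lost without replicate 2 (adjusted p = 0.0845) or replicate 3 (0.0852). Of the 50-base stretches of its transcript, 57.4% also occur in annotated transcripts of other genes, and 59.3% of its exon bases are overlapped on the same strand by Gm45713. Reads that fit several genes may have been left uncounted, and the part of this in its level was not tested. Rps10, overlapped by another annotated gene over 91.6% of its exon bases and with 92.4% of stretches shared, was at 204, 188 and 126 CPM.

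Rpl39 (chromosome X, 37082520 to 37085402, minus strand), a small protein near the exit tunnel, was next lowest, in CPM and per kb, at 25.05, 19.3 and 12.2 CPM, from 129, 776 and 460 reads. It was above 10 CPM by 0.80 ± 0.20 (SE) on the same scale (adjusted p = 0.000936 by limma), and 16.5% of its stretches are shared. By CPM the next canonical genes were Rpl22 at 64.1 ± 12.3 CPM, Rpl36a at 64.9 ± 13.1 and Rpl38 at 66.6 ± 18.1, whose order changed between libraries. Rpl38, whose loss in mice disturbs the translation of a subset of Hox messages, was at 85.8, 64.2 and 49.9 CPM. Per kb, the 5 lowest canonical genes were Rpl13a at 5.88 ± 0.758, Rpl39 at 30.8 ± 10.5, Rpl5 at 37.8 ± 5.77, Rps20 at 49.8 ± 13.1 and Rpl35 at 103 ± 17.998 CPM per kb. The length used for Rps20 was 3706 bases and that for Rpl5 2045 bases, the longest of the canonical set, which lowers both values per kb.

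Sequence shared with other annotated genes was the rule in this family. The median canonical gene had 60.6% of its 50-base stretches in annotated transcripts of other genes, 75 of 76 genes had some, 50 had at least 50% and 6 had at least 90%. Rps27, with 98.6% shared, was at 257, 212 and 155 CPM. Across the 76 genes the Spearman correlation of the shared share with the level per kb was -0.03, given as a description over genes of the same libraries. How the authors treated reads that fit several genes was not given in the sources used here, so levels of strongly shared members are uncertain.

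**Figure D2:**
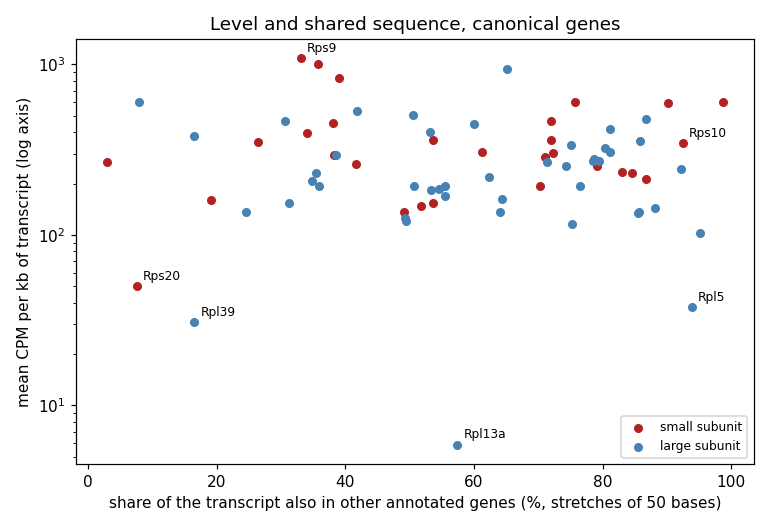
Mean CPM per kb (log axis) of 74 of the 76 canonical genes against the percent of their 50-base stretches found in other annotated genes, with small and large subunit genes in different colours. Levels of about 100 to 1000 CPM per kb occur over the whole range of sharing, and Rpl13a (57.4% shared), Rpl39 (16.5%), Rpl5 (93.8%) and Rps20 (7.57%) lie under the rest.

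The 8 pseudogene names had means of 0.613 to 3.01 CPM and were each called below 10 CPM. Rpl38-ps2, the highest, was at 4.66, 3.01 and 1.36 CPM, and Rpl18-ps1, the lowest, was at 0.388, 0.946 and 0.505 CPM, of which replicate 1 lies under the limit of a zero count there (3 reads, 0.583 CPM). Between them were Rpl14-ps1 at 2.67 ± 1.12, Rps16-ps2 at 2.20 ± 0.560, Rps24-ps3 at 1.63 ± 1.29, Rps15-ps2 at 1.36 ± 1.05, Rpl19-ps11 at 1.10 ± 0.570 and Rpl3-ps1 at 1.07 ± 0.392 CPM. All stretches of Rpl38-ps2 and Rps16-ps2 are shared with other transcripts, so their reads cannot be told from those of other genes by such a stretch. Rpl37rt was at 6.60, 2.54 and 2.26 CPM and Rps19bp1 at 7.57, 6.77 and 4.36 CPM, both below 10 CPM (limma adjusted p = 0.000337 and 0.0227).

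Small subunit messages stood slightly above large subunit messages per kb. The median of the 31 small subunit genes was 306 CPM per kb and that of the 45 large subunit genes 219 CPM per kb. The difference of the medians, small minus large, was 0.61, 0.48 and 0.45 on the log2(CPM per kb + 1) scale in replicates 1, 2 and 3, or 0.51 ± 0.09 (SD, n = 3), a 1.43-fold higher small subunit median. All 3 libraries had the small subunit median above. An exact two-sided test by sign flips over libraries, a permutation test, gave p = 0.25, and 3 libraries cannot give less. The genes of each subunit overlapped over most of their range. In total reads the order was the other way, with 0.819 ± 0.183% of reads in the 31 small subunit genes and 0.897 ± 0.167% in the 45 large subunit genes.

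**Figure D3:**
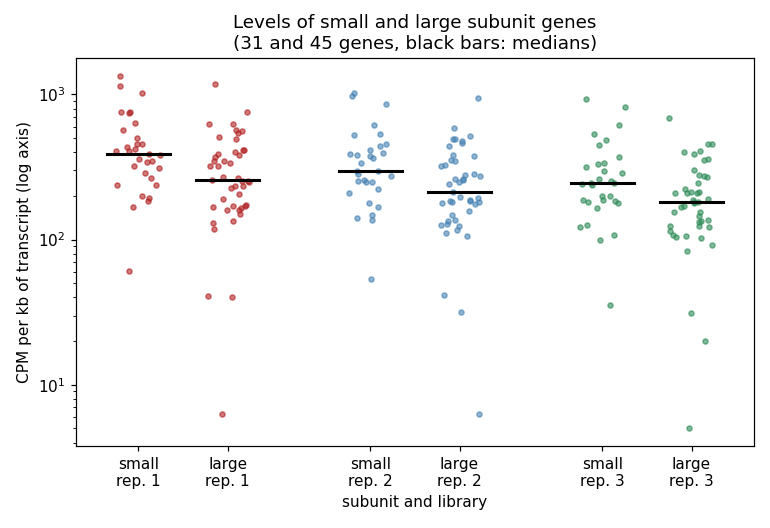
CPM per kb of transcript (log axis) of the 31 small and 45 large subunit genes in each library, with 1 point per gene and black bars at the medians. The small subunit median is the higher in each library, by 0.45 to 0.61 on the log2 scale, and the points of both subunits overlap.

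Each of the 4 paralogues with values was far below its parent gene. Rpl7l1, a nucleolar relative of Rpl7, was at 58.5, 41.0 and 48.5 CPM per kb, against 207, 175 and 170 CPM per kb for Rpl7. The difference, paralogue minus parent, was -1.89 ± 0.16 on the log2(CPM per kb + 1) scale (SD, n = 3). Rpl22l1, which Rpl22 is known to repress in mice, was at 51.0, 21.2 and 22.1 CPM per kb, against 164, 127 and 114 for Rpl22. That difference was -2.17 ± 0.45, and its parts were -1.67 in replicate 1, -2.53 in replicate 2 and -2.32 in replicate 3. Rps4l, an autosomal copy of the X-linked Rps4x that GENCODE annotates as a transcribed processed pseudogene, was at 12.8, 15.4 and 15.1 CPM per kb, against 391.9, 274 and 240 for Rps4x. That difference was -4.27 ± 0.50. Rps27l, known as a target of p53 in human cells, was at 30.4, 27.7 and 12.7 CPM per kb, against 744, 614 and 449 for Rps27. That difference was -4.68 ± 0.32, the largest of the 4 pairs. In no pair did paralogue and parent overlap. With lengths from the union of annotated exons the differences were -1.33 for Rpl22l1, -3.53 for Rps4l and -3.75 for Rps27l, so their size depends on the length used and their sign did not. Each difference was negative in 3 of 3 libraries and had p = 0.25 in the same exact permutation test, so none of the 4 pairs could pass a threshold of 0.05.

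**Figure D4:**
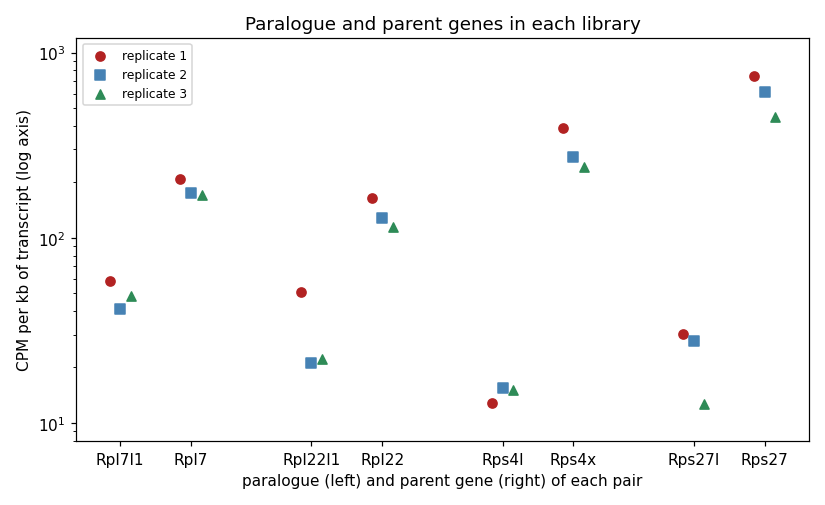
CPM per kb (log axis) of the 4 paralogues, each to the left of its parent gene, in the 3 libraries. Each paralogue lies under its parent in each library, from 1.89 (Rpl7l1) to 4.68 (Rps27l) on the log2 scale, and Rpl22l1 is higher in replicate 1 than in the others.

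Against 10 CPM, Rpl7l1 (76.7, 53.8 and 63.5 CPM) and Rpl22l1 (28.2, 11.7 and 12.2 CPM) were called above. The call of Rpl22l1 (0.62 ± 0.22, SE, adjusted p = 0.0130 by limma) was lost without replicate 1 (0.344). Rps4l, at 12.04, 14.5 and 14.3 CPM, was not called (limma adjusted p = 0.0616), and Rps27l, at 15.1, 13.8 and 6.33 CPM, was not called either (0.602). Rps4l was called above in edgeR on recovered reads (0.0307) and without replicate 1 (0.0350), and Rps27l without replicate 3 (0.0443). Rps4l differed from the canonical pattern over libraries, being lowest in replicate 1.

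The canonical ribosomal protein genes differed between the libraries nearly as 1 block. All 90 genes together took 2.09%, 1.71% and 1.39% of the assigned reads in replicates 1, 2 and 3, or 1.73 ± 0.353% (SD, n = 3). Replicate 1 thus had 1.51 times the share of replicate 3. The 95% counting intervals (Clopper-Pearson) did not overlap, being 2.08% to 2.10%, 1.70% to 1.71% and 1.38% to 1.39%. These intervals cover counting error only. Small subunit genes took 1.01%, 0.806% and 0.642% and large subunit genes 1.07%, 0.891% and 0.732%, so both subunits had the same order of libraries.

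Of the 90 genes, 83 were highest in replicate 1, against 32.1% of all genes tested, and 79 were lowest in replicate 3, against 25.9%. Both held for 76 of 90, against 18.1% of all genes. By class both held for 70 of 76 canonical genes, 1 of 4 paralogues and 3 of 8 pseudogene names. The opposite pattern, highest in replicate 3 and lowest in replicate 1, was seen in 1 of the 90, the pseudogene name Rps16-ps2, and in 0 of 76 canonical genes, against 31.9% of all genes. The 6 canonical exceptions were Rpl13a, Rpl5 and Rpl6, which were highest in replicate 2, and Rpl3, Rpl4 and Rps28, which were not lowest in replicate 3. The excess of replicate 1 over replicate 3 was beyond the 95% counting interval in 74 of 76 canonical genes, against 23.3% of all genes, with Rpl13a and Rpl4 as the exceptions. Genes with more reads pass this interval more easily. The median level was 189 CPM in canonical genes and 20.4 CPM in all genes with reads, so this background is not matched on level. Genes are not replicates and each library is 1 sample, so these counts carry no test of a difference between mice.

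The size of the difference was much alike over the set. Among the 75 canonical genes averaging 10 CPM or more, the median of replicate 1 minus replicate 3 was 0.60 on the log2(CPM + 1) scale, with a middle 50% of 0.47 to 0.74. Over all genes tested that median was -0.13, and the median of the 90 genes exceeded it by 0.74, against 0.75 both under TMM scaling and with DESeq2 size factors. Per gene the coefficient of variation over libraries had a median of 21.3% in canonical genes and 15.6% in the 7204 other genes averaging 10 CPM or more. Once each canonical gene was divided by the total of the canonical set in its library, the median was 7.23%. The highest was 23.4%, in Rps21. This division takes out a shared shift by construction and was not made for the other genes, so 7.23% has no comparator. Across the 76 genes, levels correlated with Pearson's r of 0.991 (replicates 1 and 2), 0.980 (1 and 3) and 0.982 (2 and 3). These are correlations across genes that share a library, given with no p, and do not measure how alike the library differences were.

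Some members differed more between libraries than others. The largest ranges among members averaging 10 CPM or more were those of Rpl22l1 (1.20 on the log2(CPM + 1) scale), Rps21 (1.18), Rps27l (1.14), Rps14 (1.13) and Rpl35a (1.02). Rps21 was at 180, 155 and 78.9 CPM, so replicate 3 stood apart. Rps14, whose loss contributes to the anaemia of the human 5q deletion syndrome, was at 379, 263 and 173 CPM, evenly spread. Rpl35a was at 125, 89.3 and 60.8 CPM. Small ranges were those of Rpl4 (0.21), Rps4l (0.25), Rpl7 (0.28) and Rpl15 (0.29). Rpl7 was at 240, 204 and 198 CPM, and Rpl15 at 104, 89.3 and 85.3 CPM.

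Transcript length moved with the difference between libraries among the other genes too. Among those averaging 10 CPM or more, the median of replicate 1 minus replicate 3 was 0.35 in 54 genes of up to 500 bases and 0.35 in 445 genes of over 500 to 1000 bases. It was 0.08 in 1587 genes of over 1000 to 2000 bases, -0.17 in 2927 genes of over 2000 to 4000 bases and -0.40 in 2190 longer genes. Of the other genes in the 2 shortest classes, 70.4% and 78.4% were higher in replicate 1, against 14.0% in the longest class and all 75 canonical genes. In the same classes the canonical ribosomal protein genes had medians of 0.73 (18 genes), 0.58 (41 genes), 0.53 (14 genes) and 0.57 (2 genes). The canonical median was higher by 0.39, 0.23 and 0.45 in the classes of up to 2000 bases, of which 1 held over 20 canonical genes, and by 0.74 in the class with 2. The part of length in the difference was not tested.

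**Figure D5:**
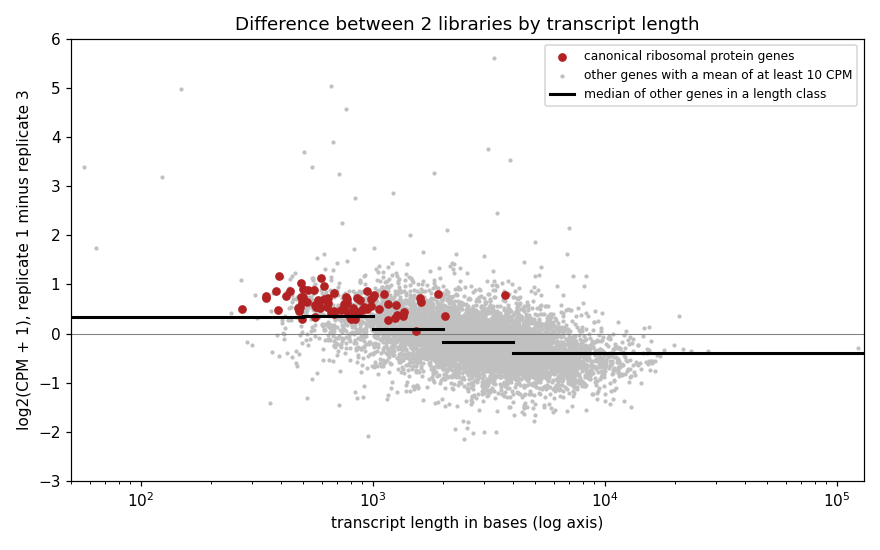
Replicate 1 minus replicate 3 on the log2(CPM + 1) scale against transcript length (log axis), for 75 canonical ribosomal protein genes and 7203 other genes averaging 10 CPM or more, with black lines at the medians of the other genes in 5 length classes. The medians of the other genes fall with length, and the ribosomal protein genes all lie above 0, mostly over the line of their class.

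Other quantities also differed between the libraries. Replicates 2 and 3 had 7.80 and 7.30 times the reads of replicate 1. Basophil markers summed to 971, 135 and 137 CPM (5 of 6 genes with values), erythroid markers to 1002, 554 and 531 CPM (7 of 7) and primary granule markers to 7165, 5361 and 6030 CPM (5 of 6) in replicates 1, 2 and 3. B lymphoid markers summed to 39.0, 20.4 and 28.0 CPM (6 of 8). Eosinophil markers had the other order, with 492, 787 and 1186 CPM (5 of 5), and proliferation markers summed to 1821, 2032 and 2161 CPM (8 of 8). No marker with values was at 0 in all 3 libraries. Messages encoded in the mitochondrial genome took 0.802%, 0.591% and 0.800% of reads and so had another order of libraries than the ribosomal protein genes. The part of any of these in the result was not tested.

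Other genes of the translation machinery did not all have the order of libraries of the ribosomal protein genes, but Fau and Rack1 did. Both were highest in replicate 1 and lowest in replicate 3, though for Fau replicates 1 and 2 were nearly equal (539.03 and 538.69 CPM). Fau, which encodes a ubiquitin-like protein fused to a small subunit protein, was at 539, 539 and 322 CPM, and Rack1, a scaffold on the small subunit, at 555, 437 and 338 CPM. Per kb Fau was at 989 and Rack1 at 306 CPM per kb, against the canonical median of 268.

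Of 16 other messages known to carry the pyrimidine tract, all 16 were above 10 CPM, against 58.8% of all genes. Of the 16, 10 were highest in replicate 1, against 32.1%, and 7 were lowest in replicate 3, against 25.9%. Both held for 6 of 16, against 18.1% of all genes. The median of replicate 1 minus replicate 3 over the 16 was 0.19. Eef1a1, the elongation factor that delivers aminoacyl tRNA, was at 2051, 1599 and 1773 CPM, Eef2, the translocation factor, at 1224, 1068 and 1052 CPM, and Tpt1 at 800, 660 and 617 CPM. The lowest of the list were Eif3e at 51.3 ± 11.7 and Eef1d at 52.1 ± 16.6 CPM. A list of 13 genes held mostly regulators of these messages, with Mdm2, Trp53 and Myc among them. All 13 were above 10 CPM, against 58.8% of all genes. Their median of replicate 1 minus replicate 3 was -0.30, and 3 were higher in replicate 1 than in replicate 3. Among the other genes averaging 10 CPM or more the median was -0.17 and 35.6% were higher in replicate 1. The 13 listed genes were thus near that background. Eif4ebp2 and Eif4ebp1, repressors of cap-dependent translation, were at 251 ± 34.8 and 96.1 ± 2.92 CPM, and Mlst8, a subunit of mTOR complexes, was at 181 ± 4.37 CPM. Tsc1, an upstream inhibitor of mTOR, was at 14.9 ± 4.37 CPM and Myc, which drives ribosome production, at 15.4 ± 4.63 CPM (limma adjusted p = 0.0314 and 0.0180). Their calls were lost, for Tsc1 without replicate 2 (0.383) and for Myc without replicate 3 (0.205).

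Chaperones that escort single ribosomal proteins to the assembling subunits, known mostly from yeast and human cells, were lower than their clients per kb. Of 8, 2 were above 10 CPM, 4 below and 2 not called, where 58.8% of all genes were above and 28.3% below. Aamp was at 87.8 ± 2.08 CPM and Ltv1, an assembly factor of the small subunit, at 20.8 ± 4.005 CPM. Bccip, a chaperone of Rpl23, was at 11.7 ± 1.17 CPM and not called (limma adjusted p = 0.355). Grwd1, a chaperone of Rpl3, was at 3.54 ± 1.77 CPM, and Tsr2, which carries Rps26, at 2.58 ± 0.764 CPM. Per kb, Bccip was at 9.41, against 207 ± 40.9 for Rpl23. Grwd1 was at 1.86 CPM per kb, against 136 ± 20.03 for Rpl3. Tsr2 was at 0.679 CPM per kb, against 295 ± 47.1 for Rps26. Per kb of transcript the chaperone list had a median of 6.14 CPM per kb, against 268 CPM per kb for the canonical genes. The median of all 11251 genes with reads and a length was 7.40 CPM per kb, so the chaperones were near that background.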

How the data were processed

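The deposited values were CPM, made by the authors with FastQC, STAR, featureCounts and edgeR, per the submitters' processing notes, which name the builds mm10 and GRCh38. No source used here gives the versions, the annotation, the strand setting, the gene filter or how reads that fit several genes were treated. Of 11463 entries per library, 44 repeated a gene with equal values and were dropped. All values were whole multiples of 1 read (100% within 0.01 reads), which gave totals of 5150020, 40149274 and 37604930 reads. A count of 0 allows 3 reads, or 0.583, 0.0747 and 0.0798 CPM.

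limma 3.58.1 (R 4.3.3) fitted an intercept to log2(CPM + 1) over the 3 libraries and tested it two-sided against log2(10 + 1), with variance trend and Benjamini-Hochberg adjustment over the 11123 genes with at least 10 reads, and a call at an adjusted p under 0.05. Such log2 values understate differences of low genes. edgeR 4.0.16 and DESeq2 1.42.0 on recovered reads, other scalings, pseudocounts, levels and left-out libraries were alternatives. Lengths are those of the shortest principal transcript in GENCODE of GRCm38 (the assembly of mm10), a choice made after the files were seen, as was the use of shared stretches. Named were the 10 highest and 10 lowest genes by CPM, the 5 highest and lowest canonical genes per kb, the 5 of largest and smallest range, the pairs, the stalk, 5S and Diamond-Blackfan lists, and in other lists the 3 highest and 2 lowest. Further genes, among them Rps12, Rpl6, Rps28, Rpl23 and Rpl3, were chosen after their values were seen. Some genes that the rule takes are not reported here. The members and lists were chosen with earlier results of these data known. Promoter sequences are from RefSeq.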

Additional observations from a re-analysis of the deposited data

How the results depend on the processing

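The count of genes above 10 CPM was 75 to 79 over all alternatives (77 in the analysis reported) and 77 to 78 with 1 library left out. The count below was 8 to 15, and 1 among canonical genes only. The share of reads was 1.73%, 2.41% when the 20 highest other genes were left out of the total, and 1.55% to 1.90% with 1 library left out. The median of replicate 1 minus replicate 2 over the 90 genes was 0.27, and 0.29 with DESeq2 size factors. For replicate 2 minus replicate 3 it was 0.33, with 0.45 under TMM, 0.44 with DESeq2 size factors, 0.34 with a pseudocount of 0.1 and 0.34 in canonical genes. For replicate 1 minus replicate 3 it was 0.60, with 0.74 under TMM, 0.75 with DESeq2 size factors and 0.59 in canonical genes. The median of all genes was then -0.01 under TMM and 0.00 with DESeq2 size factors, against -0.13 with totals. The small minus large difference (0.46 to 0.61) and the 4 paralogue differences kept their sign under other lengths, pseudocounts and left-out libraries. Of 732 single-gene alternatives, 705 kept their call and direction, 12 lost and 9 gained a call, and 6 turned in sign, each with the level moved: at 50 CPM Ltv1 (-1.24), Myc (-1.67), Rpl22l1 (-1.59), Rpl39 (-1.41) and Tsc1 (-1.72), and at 5 CPM Rpl13a (0.25). The median shared share was 50.8% with stretches of 75 bases. No paired analysis was possible because there was 1 group. In replicate 1, 10 CPM is 51.5 reads, which limits low genes.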

Other observations

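Pseudogenes outside the naming rule held few reads. In the annotation 406 pseudogenes share at least 100 stretches of 50 bases with a ribosomal protein transcript, and 22 of them had values, 14 under names outside the rule. Those 14 summed to 62.9, 35.1 and 27.1 CPM in replicates 1, 2 and 3, so the sum was highest in replicate 1 and lowest in replicate 3. Singly, 9 of the 14 had that order and 5 had another, among them Gm13436 at 5.63, 2.71 and 5.03 CPM and Gm7285 at 0.388, 1.39 and 1.46 CPM. The highest was Gm4332, at 10.5, 4.43 and 4.07 CPM. Rpsa-ps11 was at 6.99, 4.16 and 1.73 CPM and Rpsa-ps10 at 3.88, 2.84 and 1.44 CPM, both far under Rpsa. Reads of these copies and of the parent genes cannot be told apart within shared stretches.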
